A study of Mus musculus with 10 samples.

Results

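Th2 cultures grown for 5 days from mouse splenic CD4 T cells were compared with freshly isolated splenic CD4 T cells by RNA sequencing. The comparison used 4 of the 10 samples in the series: the 2 untreated Th2 samples and the 2 CD4T samples, picked by their labels and not by any measured value. Of 19025 genes in the files, 12367 were tested. A gene's level was the highest FPKM (fragments counted per length of transcript and depth of library) among its transcript rows. Genes listed at 0 in all 4 Th2 and Th2-TSA files (467 genes) or in all 6 other files (73 genes) were left out, because a failed name match can give such a 0.

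All mice were of strain C57BL/6. The CD4T samples were spleen cells of mice 6 to 8 weeks old, sorted with magnetic beads to a stated purity above 98%. For the Th2 samples, splenic CD4 T cells were stimulated with 15 ng/ml IL-2 and 10 ng/ml IL-4 until day 5. The Th2-TSA samples had the same culture plus 10 nM trichostatin A (TSA), a histone deacetylase inhibitor, from day 2 for 3 more days. The other groups of the series, B6N-22 embryonic stem (ES) cells grown on feeder cells with LIF and splenic B220 B cells sorted like the CD4T cells, entered the fit and served as reference levels. Each of the 5 groups had 2 samples, and no label says that the samples of a group came from separate animals or cultures. A 5-day culture with cytokines differs from sorted spleen cells in stimulation, time outside the animal and cytokines at once, and these cannot be told apart here.

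Th2 cells are the helper T cells of allergy and of immunity to worms. In mouse CD4 T cells, IL-4 acts through the factor STAT6 to turn on Gata3, which opens the locus of Il4, Il5 and Il13, while IL-2 acts through STAT5 to drive growth. Resting CD4 T cells instead keep a program of recirculation and survival, held by factors such as TCF-1 (Tcf7), LEF-1 and KLF2 and by the IL-7 receptor.

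The promoter windows of 4 genes are shown because these genes mark the ends of the comparison: Gzmb (granzyme B, a serine protease of cytotoxic granules) and Il4 for the cultures, Tcf7 and Il7r for the CD4 T cells. Each runs 5′ to 3′ from 250 bases before to 50 bases after a RefSeq transcript start (assembly GRCm38.p6, the build of the files' mm10), and all 4 genes lie on the minus strand. Capitals mark matches, on either strand, to the core of a GATA site (TGATAA and TGATAG, or either form with A in place of the first T), to GGAAA as in NFAT sites, to TGACTCA as in AP-1 sites, and to the STAT forms TTCNNNGAA and TTCNNNNGAA. The Gzmb window is chr14:56262285-56262584, the Il4 window chr11:53618616-53618915, the Tcf7 window chr11:52282546-52282845 and the Il7r window chr15:9529827-9530126.
Gzmb: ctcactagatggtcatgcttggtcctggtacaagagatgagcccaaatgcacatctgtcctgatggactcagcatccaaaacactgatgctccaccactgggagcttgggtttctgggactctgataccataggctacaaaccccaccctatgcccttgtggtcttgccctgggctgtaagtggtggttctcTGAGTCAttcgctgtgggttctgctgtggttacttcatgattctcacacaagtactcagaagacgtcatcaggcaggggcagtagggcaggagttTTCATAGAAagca
Il4: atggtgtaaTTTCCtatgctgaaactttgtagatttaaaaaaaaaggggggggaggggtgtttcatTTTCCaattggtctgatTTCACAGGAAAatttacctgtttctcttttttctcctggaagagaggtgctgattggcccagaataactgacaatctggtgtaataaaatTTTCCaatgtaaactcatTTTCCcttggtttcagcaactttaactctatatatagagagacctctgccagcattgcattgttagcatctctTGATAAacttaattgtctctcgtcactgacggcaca
Tcf7: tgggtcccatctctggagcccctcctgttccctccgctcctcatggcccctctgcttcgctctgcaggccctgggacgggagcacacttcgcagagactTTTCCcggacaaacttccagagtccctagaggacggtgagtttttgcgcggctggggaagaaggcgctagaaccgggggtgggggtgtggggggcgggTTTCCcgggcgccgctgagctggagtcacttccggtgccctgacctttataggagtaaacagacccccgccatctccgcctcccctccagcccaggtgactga
Il7r: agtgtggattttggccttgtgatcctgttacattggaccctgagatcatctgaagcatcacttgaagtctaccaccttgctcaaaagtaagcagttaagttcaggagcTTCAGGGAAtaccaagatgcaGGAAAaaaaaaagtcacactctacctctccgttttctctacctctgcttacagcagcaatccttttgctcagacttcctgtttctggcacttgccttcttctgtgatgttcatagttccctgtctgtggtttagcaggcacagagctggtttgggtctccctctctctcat
The Gzmb window held 1 AP-1 match and 1 STAT match, with no GATA and no GGAAA match. The Il4 window held 5 GGAAA matches, 1 GATA match and 1 STAT match that overlaps a GGAAA match. The Tcf7 window held 2 GGAAA matches, and the Il7r window held 1 GGAAA and 1 STAT match. Tcf7 has a second RefSeq start, whose window held no match, and Il4 has another with 1 match each to GATA, GGAAA and STAT. Of 32851 such windows of 300 bases in RefSeq, 61.3% held a GGAAA match, 29.8% a GATA match, 14.6% a STAT match and 5.2% an AP-1 match. Such matches are letters in a window, and no binding was measured.

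All 4 marker genes followed their labels. Gzmb stood at 1727 and 2059 FPKM in the Th2 libraries and at 2.57 and 2.46 FPKM in the CD4T libraries, a log2 difference of 9.07 ± 0.29 (standard error) on the log2(FPKM + 1) scale used throughout (limma adjusted p = 0.00134). Il4 stood at 75.4 and 96.0 against 5.14 and 4.9 FPKM (log2 difference 3.84 ± 0.19, limma adjusted p = 0.0026). Tcf7 stood at 16.5 and 14.7 against 553 and 560 FPKM (log2 difference -5.07 ± 0.18, limma adjusted p = 0.00161). For each of these genes the Th2 libraries lay entirely to one side of the CD4T libraries. Most of the 12367 tested genes did the same, 3934 on the higher and 7181 on the lower side, so this does not set these genes apart. Il7r, the receptor chain for the survival cytokine IL-7, stood at 64.3 and 67 against 224 and 222 FPKM (log2 difference -1.75 ± 0.11, limma adjusted p = 0.00377), so it was reduced 3.4-fold but far from absent. These 4 genes kept their direction and call under all 20 alternative settings.

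The files came in 2 kinds: those of the Th2 and Th2-TSA samples repeat 1 value for every row of a gene (all 1159 such genes), while those of the other samples give each transcript its own value (9 of 1230 such genes identical). This split coincides with the comparison, so file kind and group cannot be told apart. Summing rows in the ES, B and CD4T files alone moved the log2 differences of Btla (-5.59), Cd27 (-5.17), Cd74 (-7.08), Gimap4 (-2.84), Ptpn6 (-3.02) and Cdkn1a (5.45) by more than 1.5-fold from the values given below. The 2 CD4T libraries differed by no more than sampling noise: their log2 ratios had an SD of 0.0465 and spread at all levels as counting error at 1 depth would (the implied depth varied 1.2-fold over levels). They were therefore averaged and counted as 1 sample, as were the ES and the B pair, and the spread in every test came from the Th2 pair (SD 0.308, implied depth varying 23.8-fold) and the Th2-TSA pair. The lone CD4T sample is assumed to vary like those, with 2 residual degrees of freedom. Depth is unknown because the files hold no counts. Summed FPKM was 464352 and 497651 in Th2 and 412075 and 412181 in CD4T, and 9652 and 9746 against 10553 and 10589 genes reached 1 FPKM. Each of these facts touches every result below.

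Of the 12367 genes, 6795 (54.9%) passed an adjusted p of 0.05: 2086 (16.9%) were higher and 4709 (38.1%) lower in the Th2 cultures. The median gene differed by -0.28. With quantile normalization, which shifts that median to 0.02, 3505 genes were higher and 3423 lower, so that the higher share of calls went from 30.7% to 50.6%. With median-ratio scaling (median -0.04) the share was 45.1%. Changes are therefore best read against -0.28, and the counts of each list below against the 16.9% and 38.1% of all genes. By size, 1352 genes were called with a log2 difference of at least 1 upward and 2989 downward, and 73 and 140 with one of at least 4. Without Th2 replicate 1 or 2, the calls fell to 3443 and 3188, of which 3357 and 3139 were also called, in the same direction, with both libraries. Over the 12367 genes the 2 Th2 libraries correlated at r = 0.992, while a Th2 and a CD4T library reached 0.793 to 0.801 and CD4T with B cells 0.914 to 0.915 (across genes, which are not independent).

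**Figure D1:**
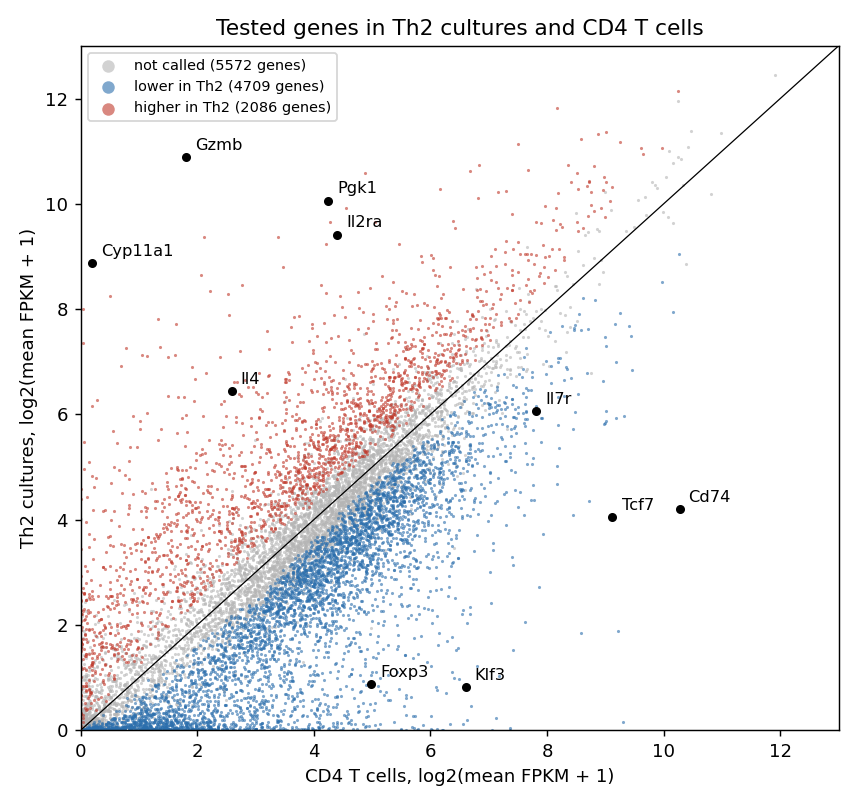
Mean level of every tested gene in CD4 T cells (x axis) and Th2 cultures (y axis), both as log2(FPKM + 1), with genes called higher in Th2 in red (2086), lower in blue (4709) and not called in grey. Gzmb and Cyp11a1 lie farthest above the diagonal of equal levels, Tcf7, Cd74 and Klf3 far below it.

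Most cytokine genes that stood high in the cultures were near 0 in the CD4 T cells. Of the 12 tested cytokine genes of Th2 and other activated helper cells, 6 were higher, against 16.9% of all genes, and 2 were lower, against 38.1%, with a median of 2.37. Il5, the eosinophil growth factor, stood at 23.1 and 22.8 FPKM in Th2 and 0.01 and 0.02 in CD4T, and Il13, which drives mucus and airway responses, at 22.5 and 32.1 against 0.2 and 0.11 FPKM (log2 differences 4.56 ± 0.34 and 4.59 ± 0.74). Higher levels than those of the classical Th2 cytokines were reached by 3 others. Il24, an IL-10 family cytokine, stood at 253 and 259 against 0.01 and 0.06 FPKM, Lif, a cytokine of the IL-6 family, at 140 and 166 against 0.67 and 0.75, and Il10, which restrains inflammation, at 114 and 159 against 1.1 and 1.27. Their log2 differences were 7.96 ± 0.19, 6.49 ± 0.17 and 5.96 ± 0.39, with limma adjusted p-values of 0.000881, 0.000996 and 0.00387. The genes called lower, named after their values were seen, were Il2, at 0 and 0.16 against 2.62 and 2.57 FPKM, and Tnfsf11 (RANKL), at 4.51 and 4.11 against 9.08 and 9.42. Both calls were lost without either Th2 library (0.0527 to 0.106), and that for Tnfsf11 under both scalings. Il9 was listed at 0 in all 4 libraries. Together, the list made up 0.154% and 0.167% of summed FPKM in Th2 and 0.00595% and 0.00599% in CD4T. Without Th2 replicate 1 or 2 the call for Il13 was lost (limma adjusted p = 0.0754 and 0.0882).

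Among 19 tested transcription factors and receptors tied to Th2 identity, 11 were higher and 3 lower (median 2.09). Gata3, the master regulator, was already present in CD4T at 19.9 and 20.3 FPKM and stood at 80.3 and 98.1 FPKM in Th2 (log2 difference 2.09 ± 0.16, limma adjusted p = 0.00487). Other factors differed more: Nfil3 went from 2.12 and 2.07 to 188 and 232 FPKM (6.08 ± 0.16), and Rbpj, the DNA-binding partner of Notch, from 5.78 and 5.41 to 83.4 and 82.3 FPKM (3.67 ± 0.09). Irf4 stood at 102 and 86.3 against 12.7 and 13.1 FPKM (2.77 ± 0.17), and Batf, its AP-1 partner, at 188 and 320 against 38.6 and 37.4 FPKM (2.66 ± 0.45). Batf lost its call without Th2 replicate 2 (limma adjusted p = 0.0588) and without either Th2-TSA library (0.0592 and 0.0599), and Rbpj went to 2.26 with rows summed in the CD4T files. The second largest rise of all genes belonged to Cyp11a1, the mitochondrial enzyme that starts steroid synthesis from cholesterol, at 406 and 534 FPKM in Th2 and 0.16 and 0.13 in CD4T (8.67 ± 0.3, limma adjusted p = 0.00146). Il4ra, the receptor that senses IL-4, and the chemokine receptors Ccr4 and Ccr8 were higher by 2.57, 3.41 and 3.86. Against the list's direction, and named after their values were seen, the 3 genes called lower were Stat6, at 39.3 and 48.2 against 77.5 and 77.7 FPKM, the IL-25 receptor chain Il17rb, at 1.91 and 2.38 against 17.9 and 16.8, and the IL-33 receptor Il1rl1, at 0.61 and 0.74 against 1.41 and 1.46. The call for Stat6 was lost without any 1 of the Th2 and Th2-TSA libraries (0.0568 to 0.0841) and with median-ratio scaling (0.118), and Il1rl1 turned to 0.15 with quantile normalization. Maf, an activator of Il4 and Il10, did not pass (29.1 and 56.5 against 13.5 and 13.3 FPKM, limma adjusted p = 0.161).

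**Figure D2:**
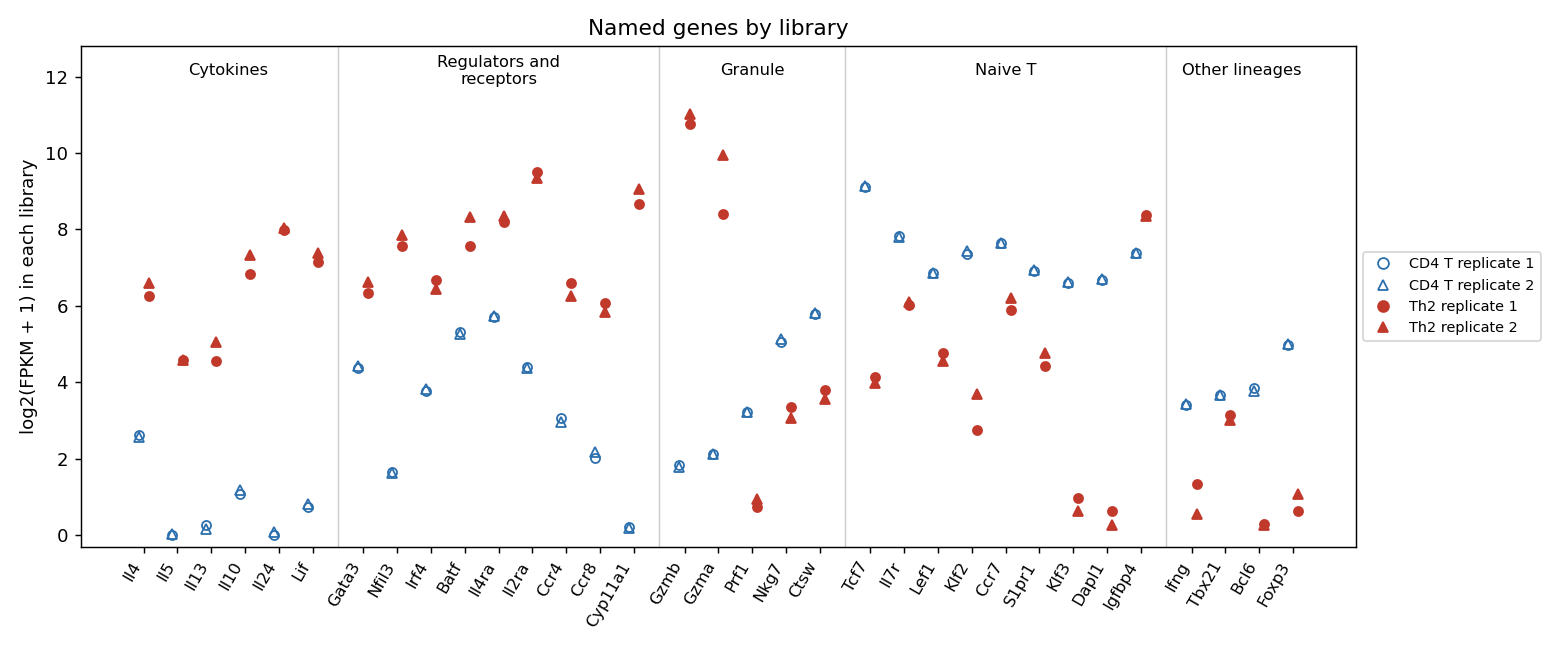
Level of named cytokine, regulator, granule, resting and other-lineage genes in each library, as log2(FPKM + 1), with CD4 T libraries as open blue and Th2 libraries as filled red symbols. The CD4 T symbols nearly coincide within each pair, the cytokine and regulator genes lie higher in both Th2 libraries, and in the granule panel Gzmb and Gzma lie higher while Prf1, Nkg7 and Ctsw lie lower.

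Of 16 tested genes of Th1, Th17, follicular helper and regulatory T cells, 10 were lower and none higher, with a median of -1.60. The lower count was 7 without either Th2 library, and with quantile normalization 9 were lower and 2 higher. Among those not called, Runx3, a factor of Th1 cells, stood at 33.7 and 41.6 against 25.9 and 25.9 FPKM and Il12rb2, a chain of the IL-12 receptor, at 18.47 and 12.13 against 5.7 and 5.95, above CD4T in both libraries. These 2 were the genes called higher with quantile normalization (limma adjusted p = 0.0364 and 0.00881). Foxp3, the factor of regulatory T cells, stood at 0.56 and 1.12 FPKM in Th2 against 30.5 and 30.9 in CD4T (log2 difference -4.12 ± 0.3, limma adjusted p = 0.00465). Bcl6, the factor of follicular helper cells, stood at 0.23 and 0.21 against 13.3 and 12.77 FPKM (-3.53 ± 0.07). Ifng, the Th1 cytokine, stood at 1.51 and 0.46 against 9.61 and 9.78 FPKM, and Ikzf2, another gene of regulatory T cells, at 0.21 and 0.18 against 13.5 and 13.9. Not all genes of regulatory T cells fell. Of 8 such markers tested, 4 were lower and 2 higher, against 38.1% and 16.9% of all genes, Il2ra (given below) among the higher. Ctla4, at 62.9 and 122.7 against 52.6 and 51.6 FPKM, was not called. The 8 summed to 1103 and 1297 FPKM in Th2 and 214 and 215 in CD4T. The Th1 factor Tbx21 remained at 7.8 and 7.07 FPKM against 11.8 and 11.6 (-0.59 ± 0.12, limma adjusted p = 0.0317), a call lost without either Th2 library (0.103 and 0.136) and under both scalings. The Ifng call was lost without either Th2-TSA library (0.0656 and 0.0661). B cell levels were at or above those of CD4T for 4 of the 10 lower genes, among them Ccr6, Cxcr5 and Bcl6. For these named genes the B cell libraries averaged 80.1, 164 and 26.8 FPKM, against 10.1, 15.7 and 13.05 in CD4T. The call for Cxcr5 was lost without either Th2 library (0.086 and 0.0826). B cell markers were present in the CD4T libraries, as described further on, and the part of B cells in these falls was not tested.

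Of 16 tested genes of granzymes and cytotoxic granules, 3 were higher and 7 lower (3 without either Th2 library), near the shares over all genes (16.9% and 38.1%). With quantile normalization 5 were higher and 5 lower. All those higher were granzymes, although Gzmk and Gzmm, named after their values were seen, fell from levels below 2 FPKM, calls lost without either Th2 library (0.054 to 0.078). Beside Gzmb, Gzma stood at 339 and 985 FPKM in the 2 Th2 libraries against 3.39 and 3.32 in CD4T (7.05 ± 0.8, limma adjusted p = 0.00944), and Gzmc at 11.9 and 8.32 against 0.79 and 0.81 FPKM (2.6 ± 0.27, limma adjusted p = 0.00828). Gzmb alone made up 0.418% and 0.464% of the summed FPKM of the Th2 libraries. Several genes that accompany granzymes in killer cells were lower. Prf1 (perforin, the pore-forming partner of granzymes) stood at 0.66 and 0.94 against 8.35 and 8.4 FPKM, Nkg7 at 9.3 and 7.43 against 32.1 and 33.9, and Ctsw at 12.9 and 10.8 against 54.4 and 54.7 (log2 differences -2.39 ± 0.28, -1.87 ± 0.17 and -2.12 ± 0.29). Ctsc, the protease that activates granzymes, fell by 1.46. Srgn, the proteoglycan of granules, stood at 456 and 710 against 199 and 203 FPKM and was not called (limma adjusted p = 0.071), but was called higher with median-ratio scaling (0.0492) and quantile normalization (0.0328). The calls for Prf1 and Ctsw were lost without Th2 replicate 1 (0.0586 and 0.0611) and without Th2 replicate 2 (0.0554 and 0.0713). Markers of CD8 T cells and NK cells moved the same way as Prf1: all 8 tested were lower (4 and 5 without Th2 replicate 1 or 2), with sums of 8.2 and 8.62 FPKM in Th2 and 97.8 and 96.6 in CD4T, and their part in the fall of the granule genes was not tested.

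The resting program was reduced across nearly the whole list. Of 24 genes of naive and quiescent T cells, 21 were lower (14 and 15 without Th2 replicate 1 or 2) and 1 higher, with a median of -2.88, and their summed level was 980 and 990 FPKM in Th2 against 3805 and 3816 in CD4T. Klf3, a relative of Klf2, stood at 0.98 and 0.55 against 95.8 and 97.2 FPKM (-5.8 ± 0.24), Dapl1 at 0.55 and 0.21 against 102 and 104 (-6.24 ± 0.55), and Klf2, which drives the exit genes of lymphoid organs, at 5.68 and 11.8 against 164 and 172 (-4.19 ± 0.79). Klf2 lost its call without either Th2 library (0.0937 and 0.0734). Il6ra, the receptor for IL-6, fell by 4.91 and Rasgrp2, an activator of integrins, by 3.39. Homing genes kept part of their level: S1pr1, the exit receptor, stood at 20.4 and 26.4 against 119 and 123 FPKM, and Ccr7 at 58 and 72.9 against 199 and 199. The single gene called higher, named after its value was seen, was Igfbp4, at 331 and 324 against 167 and 166 FPKM (0.97 ± 0.09, limma adjusted p = 0.00646), a call lost without either Th2 library (0.0532 and 0.0531). For a bulk sample, fewer cells of a type and less RNA per cell cannot be told apart. B cells express much of this list: of the 21 genes called lower, 6 had B cell levels at or above those of CD4T, and 4, among them Tcf7, Il7r and Dapl1, had B cell levels below 0.1 times it.

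Genes of the T cell receptor pathway were mostly kept or moderately lower. Of 39 tested, 23 were lower (14 and 13 without Th2 replicate 1 or 2), 1 was higher and 15 were not called, with a median of -1.11. The higher one, named after its value was seen, was Themis, a T cell signalling gene, at 54.9 and 60.9 against 37.1 and 37.7 FPKM (0.62 ± 0.14), a call lost without any 1 of the Th2 and Th2-TSA libraries (0.0728 to 0.151). The receptor chain Cd3d stood at 205 and 232 against 234 and 240 FPKM and was not called, and neither was Cd3e, at 133 and 113 against 243 and 246 (limma adjusted p = 0.0511). Cd4 stood at 135 and 131 against 299 and 299 FPKM (-1.16 ± 0.11), and its call was lost without either Th2 library (0.0515 and 0.055). Among the larger falls were brakes of the pathway. Dgka, which removes the second messenger diacylglycerol, stood at 62 and 60.9 against 644 and 638 FPKM (-3.36 ± 0.07, limma adjusted p = 0.000802), and Ptpn6 (SHP-1), a phosphatase, and Cd5, an inhibitory receptor, fell by 2.03 and 1.66. The kinase Fyn fell too, by 2.18. T cell markers were lower in 8 of 13 and higher in 1, against 38.1% and 16.9% of all genes, with a median of -0.82. The 13 T cell markers as a whole summed to 2330 and 2472 FPKM in Th2 and 3234 and 3233 in CD4T, with Thy1 the single member called higher (704 and 813 against 304 and 306), a call lost without either Th2 library (0.0801 and 0.1).

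Surface receptors of activated T cells divided into 2 sets. Of 21 tested, 8 were higher and 10 lower, against 16.9% and 38.1% of all genes. Il2ra (CD25), the high-affinity chain of the IL-2 receptor, stood at 718 and 646 FPKM in Th2 against 20.2 and 19.9 in CD4T (5.02 ± 0.3, limma adjusted p = 0.00338). Tnfrsf8 (CD30) stood at 202 and 243 against 1.28 and 1.74 FPKM (6.47 ± 0.16), Icos, a costimulator, at 262 and 214 against 31.4 and 31.5 (2.87 ± 0.18), and Tnfrsf4 (OX40) at 249 and 426 against 30.8 and 29.9 (3.38 ± 0.45). On the other side stood Cd27, a costimulator of resting T cells, at 7.0 and 17.5 against 242 and 244 FPKM (-4.33 ± 0.6), Btla at 3.52 and 2.66 against 98.3 and 96.6 (-4.6 ± 0.17) and Cd83 at 0.34 and 0.54 against 31.7 and 32.5 (-4.53 ± 0.32). Cd27 lost its call without either Th2-TSA library (0.0571 and 0.0576), and without either Th2 library 4 genes of the list were higher and 8 or 7 lower. The B cell libraries averaged 440 FPKM for Btla and 138 for Cd83, above CD4T, and 17.4 for Cd27, far below it.

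Receptors for cytokines were lower with few exceptions. Of 29 tested, 20 were lower (14 and 13 without Th2 replicate 1 or 2) and 5 higher. Those higher were Il2ra, Il2rb, Il4ra, Il12rb1 and the decoy receptor Il1r2, so both cytokines supplied to the culture had a specific receptor chain that stood higher. Il2rb stood at 416 and 488 against 116 and 118 FPKM (1.94 ± 0.13, limma adjusted p = 0.00396), whereas Il2rg, the common gamma chain, stood at 215 and 198 against 355 and 357 (-0.78 ± 0.1), a call lost without either Th2 library (0.0579 and 0.07). Il12rb1, a chain of the IL-12 receptor, stood at 75.7 and 73.8 against 10.1 and 10.4 FPKM (2.75 ± 0.08). The call for Il1r2 was lost without any 1 of the Th2 and Th2-TSA libraries (adjusted p from 0.0658 to 0.104). Il18r1, the IL-18 receptor of Th1 cells, fell by 3.63 and Il9r by 3.12. B cell levels were at or above those of CD4T for 6 of the 20 lower genes, among them Il9r (61.8 against 10.3 FPKM). In the pathway downstream, 4 of 21 JAK, STAT and feedback genes were higher and 8 lower (2 and 3 without Th2 replicate 1 or 2), close to the 16.9% and 38.1% of all genes. The 4 were the STAT5 targets Socs2 and Cish and the kinases Pim1 and Pim2. Socs2 stood at 150 and 122 against 4.23 and 4.21 FPKM (4.71 ± 0.16), Cish at 177 and 215 against 26.4 and 25.7 (2.86 ± 0.23), and Socs1 did not pass (136 and 229 against 28 and 28.4, limma adjusted p = 0.0539). The call for Pim2 was lost without either Th2 library (0.0563 and 0.0627).

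Genes that steer cell traffic were mostly lower as well. Of 28 chemokine receptors, chemokines and adhesion genes 16 were lower (8 and 10 without Th2 replicate 1 or 2) and 5 higher, with a median of -1.53. Ccr9, the receptor for homing to the gut, stood at 0 and 0.02 against 16 and 15.9 FPKM (-4.07 ± 0.08, limma adjusted p = 0.00065), and the integrin chain Itgae at 0.45 and 0.6 against 6.91 and 6.79 (-2.37 ± 0.15). Those higher included Ccr4 and Ccr8 of Th2 cells, given above, and, named after their values were seen, Ccr2 and Ccr1. The call for Ccr2 was lost without either Th2 library (0.0662 and 0.0779) and that for Ccr1 without either Th2-TSA library (0.05 and 0.0504).

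The cultures carried high levels of cell cycle genes. Of 34 genes of DNA replication 32 were higher and none lower (24 higher without either Th2 library), with a median of 1.82, and of 40 genes of mitosis 38 were higher and none lower (32 and 34 without Th2 replicate 1 or 2), with a median of 2.82. The replication list summed to 2257 and 2188 FPKM in Th2, 623 and 622 in CD4T and, for comparison, 2027 on average in ES cells, which divide fast. The mitosis list summed to 2887 and 2634 FPKM against 525 and 521, with 2424 in ES cells. Mcm5, a subunit of the replicative helicase, stood at 113 and 114 against 21.5 and 21.9 FPKM (2.33 ± 0.11), Cdc45, its activator, at 44.5 and 45.5 against 4.19 and 4.38 (3.12 ± 0.08), Ccnb1, the mitotic cyclin, at 85.7 and 72.6 against 2.07 and 2.26 (4.66 ± 0.2) and Ube2c, which ends mitosis, at 214 and 243 against 11.8 and 11.4 (4.18 ± 0.14). All 4 lay above the CD4T libraries by more than 5-fold, and their limma adjusted p-values ran from 0.000996 to 0.00243. The exceptions, not called, were Rfc1 and Rpa1 in replication and Pttg1 and Smc4 in mitosis, named after their values were seen.

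Regulators of the entry into the cycle were less uniform. Of 18 genes of G1 control, 12 were higher (6 and 5 without Th2 replicate 1 or 2) and 2 lower. The D-type cyclins did not rise as a group: Ccnd2 stood at 70.7 and 64.8 against 75.3 and 75.1 FPKM and Ccnd3 at 194 and 268 against 117 and 116, neither called, while Ccnd1 stood at 0.2 and 0.08 against 24.1 and 23.9 (-4.46 ± 0.16, limma adjusted p = 0.00159). Cdk4, their kinase partner, stood at 229 and 255 against 69.99 in both libraries, in FPKM, (1.78 ± 0.11). Cdkn1a, the inhibitor p21, was among the 20 largest rises, at 111 and 169 against 1.14 and 1.02 FPKM (6.05 ± 0.35, limma adjusted p = 0.00325), and Cdkn1b, the inhibitor p27 of resting cells, was not called (18.3 and 38.7 against 93.6 and 93.3, limma adjusted p = 0.098). Myc was listed at 0 in all 4 Th2 and Th2-TSA files and at 34.9 and 34.6 FPKM in CD4T. It is 1 of 20 rows at 0 in those files and above 10 FPKM in all others, so it was not tested and nothing is read from it. Of 8 other genes of its network, 2 were higher (0 without either Th2 library) and 3 lower, near the shares over all genes.

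Most genes of glycolysis were higher in the cultures. Of 19 genes 14 were higher and none lower (13 and 11 higher, and none and 1 lower, without Th2 replicate 1 or 2), with a median of 2.05, and the list made up 1.32% and 1.7% of summed FPKM in Th2 against 0.236% and 0.237% in CD4T. Hk2, which traps glucose in the cell, stood at 30.3 and 29 against 2.25 and 2.46 FPKM (3.19 ± 0.29), Slc16a3 (MCT4), which exports lactate, at 65.1 and 138 against 2.98 and 2.81 (4.62 ± 0.57), and Pkm, the last enzyme, at 1024 and 1355 against 141 and 143 (3.05 ± 0.22), with limma adjusted p-values of 0.00636, 0.0112 and 0.00456. With rows summed in the CD4T files the difference of Slc16a3 was 3.33. The largest differences of the list belong to genes with processed copies elsewhere in the genome, among which reads may be split, so they are uncertain: Pgk1 stood at 949 and 1189 against 18.9 and 17.2 FPKM, Pgam1 at 251 and 370 against 4.46 and 5.12 and Tpi1 at 488 and 709 against 17.8 and 17.2. In the ES files, which are of the same kind as the CD4T files, these 3 genes averaged 173, 52.9 and 194 FPKM. The glucose transporters varied between the Th2 libraries: Slc2a3 stood at 49.97 and 152 against 22.4 and 21.9 FPKM and was not called, and Slc2a1, at 60.01 and 110 against 18.6 and 19.3, lost its call without Th2 replicate 2 (0.0649) and without either Th2-TSA library (0.0966 and 0.0974).

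Genes of lipid synthesis were mostly higher too. Of 19 cholesterol genes 17 were higher and none lower (9 without either Th2 library), with sums of 1010 and 1030 FPKM in Th2 and 291 and 295 in CD4T, and of 11 fatty acid genes 9 were higher and none lower (2 without either Th2 library). Idi1, an isomerase of the isoprenoid chain, stood at 56.9 and 58.8 against 1.0 and 1.04 FPKM (4.86 ± 0.1, limma adjusted p = 0.00075). Scd2 and Fads2, fatty acid desaturases, stood at 313 and 295 against 20.7 and 20.9 FPKM and at 81.2 and 80.9 against 1.96 and 1.67. Serine and one-carbon genes (9 of 14 higher, none lower), nucleotide genes (13 of 20, none lower) and the pentose phosphate route (4 of 7, none lower) were called in 1 direction only. Without Th2 replicate 1 or 2, these 3 counts were 5 and 5, 9 and 9, and 0 and 0. Rrm2, the regulated subunit of ribonucleotide reductase, stood at 231 and 190 against 15.3 and 13.9 FPKM (3.75 ± 0.21). Amino acid transporters were mixed, with 4 of 12 higher (2 without either Th2 library) and 1 lower: the cystine carrier Slc7a11 stood at 8.04 and 8.99 against 0.15 and 0.18 FPKM (3.03 ± 0.1), and the leucine carrier Slc7a5 at 80.5 and 67.8 against 12.6 and 13.5 (2.41 ± 0.29, a call lost without either Th2 library, 0.0593 and 0.0558), while the glutamine carrier Slc1a5 stood at 110 and 96.0 against 102 and 103. Polyamine genes were mixed too, with 3 of 8 higher and 2 lower, against 16.9% and 38.1% of all genes. Odc1, the rate-limiting enzyme of their synthesis, stood at 83.0 and 65.2 against 12.05 and 13.2 FPKM and was called higher. The 2 called lower were Sat1, which starts their breakdown, at 17.5 and 20.8 against 116 and 113, and the synthesis gene Amd1. Amd1 was listed at 0 in both Th2 libraries against 3.42 and 3.34 FPKM in CD4T (-2.13 ± 0.03).

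Mitochondrial genes differed by less. Of 71 nuclear genes of the respiratory chain 47 were higher and none lower (26 and 22 without Th2 replicate 1 or 2), with a median of 0.95, whereas of 18 genes of the citric acid cycle 6 were higher (2 and 1 without Th2 replicate 1 or 2) and 1 lower (median 0.32). Over all genes 16.9% were higher and 38.1% lower. Citrate synthase, Cs, stood at 111 and 110 against 60.4 and 61.1 FPKM (0.86 ± 0.06, limma adjusted p = 0.00481). Protein quality genes were also higher: 25 of 37 proteasome genes (7 without either Th2 library) and 17 of 23 chaperone genes (8 and 7), none lower in either list. Psmb5, a catalytic subunit of the proteasome, stood at 117 and 127 against 32.3 and 31.1 FPKM (1.91 ± 0.08). Xbp1, a factor of the unfolded protein response, stood at 295 and 300 against 38.4 and 37.6 FPKM (2.93 ± 0.09), and Hsp90aa1 at 261 and 201 against 22.8 and 21.7 (3.31 ± 0.32). Ribosome biogenesis genes stood between these and the background: 5 of 24 were higher, none without either Th2 library and 14 with quantile normalization, with a median of 0.51. The nucleolar gene Npm1 stood at 557 and 494 against 200 and 201 FPKM (1.38 ± 0.22), a call lost without either Th2 library (0.0869 and 0.0771).

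Ribosomal protein genes took 17.3% and 18.9% of summed FPKM in the Th2 libraries and 10.4% in both CD4T libraries. Of 81 tested, 48 were higher and 10 lower (24 and 23 higher without Th2 replicate 1 or 2), with a median of 0.91 that fell to 0.22 with quantile normalization, where 31 were higher and 17 lower. Because these genes have many processed copies and the files differ in kind, single values are uncertain. As an example named after its values were seen, Rps23 stood at 763 and 852 against 18.9 and 18 FPKM, while Rpl21 stood at 3.33 and 2.96 against 198 and 196. Rps27 stood at 8.0 and 914 FPKM in the 2 Th2 libraries against 1346 and 1321 in CD4T and was not called, but it was called lower without Th2 replicate 2 (adjusted p = 0.021). The same caution applies to other genes among the 10 called genes with the highest levels in the cultures, such as Rpl41, at 3190 and 4027 against 287 and 289 FPKM, and Eef1a1, the elongation factor, at 4460 and 4592 against 1209 and 1221, whose call was lost with quantile normalization and without any 1 of the Th2 and Th2-TSA libraries (0.0539 to 0.0641). The one gene of that set outside translation was Vim (vimentin, an intermediate filament), at 2137 and 2348 against 181 and 181 FPKM (3.62 ± 0.15, limma adjusted p = 0.00196).

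Interferon-stimulated genes were low in the cultures. Of 28, 21 were lower (18 and 16 without Th2 replicate 1 or 2) and 1 higher, with a median of -2.23. Irf7, the factor that amplifies interferon production, stood at 7.31 and 8.76 against 81.4 and 82.0 FPKM (-3.2 ± 0.22) and Oas2, an antiviral enzyme, at 0.82 and 0.74 against 33.6 and 32.8 (-4.26 ± 0.07). The exception was the nuclease Isg20, at 112 and 129 against 27.2 and 27.2 FPKM (2.1 ± 0.18, limma adjusted p = 0.00588, or 1.17 with rows summed in the CD4T files). The guanylate-binding and immunity-related GTPases, which interferons also induce, were mostly not called: 2 of 13 were higher and 2 lower, against 16.9% and 38.1% of all genes, and Gbp2 stood at 26.3 and 26.7 against 34.1 and 33.6 FPKM. Of 19 immediate early genes 14 were lower (5 and 6 without Th2 replicate 1 or 2) and 2 higher, with a median of -2.61. Nr4a1, an early target of the T cell receptor, stood at 2.14 and 2.01 against 68.4 and 70.2 FPKM (-4.52 ± 0.12), Fosb at 0.04 and 0.03 against 7.55 and 7.68 (-3.06 ± 0.04) and Dusp1, a phosphatase of MAP kinases, at 5.32 and 7.92 against 78.9 and 79.6 (-3.42 ± 0.32). Calls for Fos and Jun were lost without either Th2 library (0.0551 to 0.143). The 2 higher, named after their values were seen, were Ier3, at 19.8 and 37.5 against 1.78 and 1.77 FPKM, and Atf3, at 11.5 and 9.21 against 2.7 and 2.71, and the call for Ier3 was lost without Th2 replicate 2 (0.0555) and without either Th2-TSA library (0.0545 and 0.055). Gimap genes, GTPases of lymphocyte survival, were lower in 7 of 8 (4 without either Th2 library): Gimap4 stood at 265 and 224 against 1142 and 1138 FPKM (-2.22 ± 0.14), and Gimap7, not called, at 60.2 and 64.8 against 60.2 and 58.5.

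Genes of survival and death moved both ways, with 4 of 15 higher and 6 lower (3 and 2 without either Th2 library), against 16.9% and 38.1% of all genes. Bcl2, the survival factor, stood at 74.6 and 80.5 against 26 and 25.9 FPKM (1.54 ± 0.11, limma adjusted p = 0.00443), which became 0.74 with rows summed in the CD4T files. Fas, the death receptor, stood at 4.87 and 5.43 against 29.4 and 30.2 FPKM (-2.33 ± 0.13). The survival gene was thus higher and the receptor gene lower.

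The series as a whole concerns Polycomb and Trithorax complexes, which keep genes silent or active through histone marks. Within the Polycomb complex PRC2, the 2 alternative catalytic subunits went opposite ways: Ezh2 stood at 135 and 110 FPKM in Th2 against 28.3 and 28.4 in CD4T (2.06 ± 0.22, limma adjusted p = 0.00861), and Ezh1 at 9.62 and 10.9 against 27.8 and 28.3 (-1.37 ± 0.12, limma adjusted p = 0.00589). Of 11 PRC2 genes 4 were higher and 5 lower (2 and 1 without either Th2 library). Over all genes 16.9% were higher and 38.1% lower. The accessory subunits Phf19 and Phf1 also went opposite ways, while Jarid2 was called lower (-0.54) and Aebp2 was not called (-0.46). Phf19 stood at 11.7 and 11.4 against 2.55 and 2.33 FPKM (1.86 ± 0.14) and its relative Phf1 at 9.86 and 13 against 80.6 and 80.9 (-2.73 ± 0.37). The calls for Phf1 (0.0646 and 0.0584), Suz12 (0.124 and 0.0866), Rbbp7 (0.0585 and 0.0544), Eed (0.0769 and 0.0919) and Jarid2 (0.148 and 0.11) were lost without Th2 replicate 1 or 2. In the complex PRC1, 4 of 20 genes were higher and 6 lower (none and 1 without either Th2 library), against 16.9% and 38.1% of all genes, and Cbx7, a reader of the PRC2 mark, differed most, at 14.4 and 16.2 against 92.0 and 92.7 FPKM (-2.52 ± 0.13, limma adjusted p = 0.00274). Among 17 Trithorax genes 7 were lower (5 and 4 without Th2 replicate 1 or 2) and 1 higher, a share of lower calls near the background. The methyltransferase gene Kmt2c stood at 5.8 and 4.37 against 39.3 and 39.6 FPKM (-2.74 ± 0.22), and Kmt2a at 14 and 9.64 against 51.6 and 51.8 (-2.06 ± 0.3, call lost without Th2 replicate 2, 0.0546). The partner subunit Men1 was not called (29.6 and 38 against 19.1 and 18.6 FPKM). The medians of the PRC2 and Trithorax lists, -0.33 and -0.27, turned to 0.02 and 0.07 with median-ratio scaling.

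Of 17 histone deacetylase genes 8 were lower (4 without either Th2 library) and 2 higher (0 without either). Over all genes 38.1% were lower and 16.9% higher, so these counts are near the background. Hdac8 stood at 5.12 and 5.22 against 27.3 and 25.9 FPKM (-2.16 ± 0.13, limma adjusted p = 0.00331) and Hdac10 at 7.69 and 7.56 against 22.6 and 22 (-1.43 ± 0.1). The class I members Hdac2, at 57.6 and 46 against 45.2 and 44.8, and Hdac3, at 42.6 and 40.2 against 38.5 and 37.5, were not called. Hdac1, of the same class, was called higher, at 79.7 and 76.4 against 61 and 63.4 FPKM (0.32 ± 0.08, limma adjusted p = 0.0441), a call lost without any 1 of the Th2 and Th2-TSA libraries (0.0906 to 0.189) and with quantile normalization (0.161). Of 10 DNA methylation genes 2 were higher and 4 lower (1 higher without either Th2 library, 2 and 0 lower without Th2 replicate 1 or 2), close to the shares over all genes of 16.9% and 38.1%. Uhrf1, which guides the maintenance methyltransferase during replication, stood at 95.6 and 69.9 against 7.22 and 7.27 FPKM (3.33 ± 0.29, or 1.48 with rows summed in the CD4T files), and Dnmt1, that enzyme, at 117 and 103 against 46.6 and 45 (1.25 ± 0.24), a call lost without either Th2 library (0.11 and 0.0939).

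**Figure D3:**
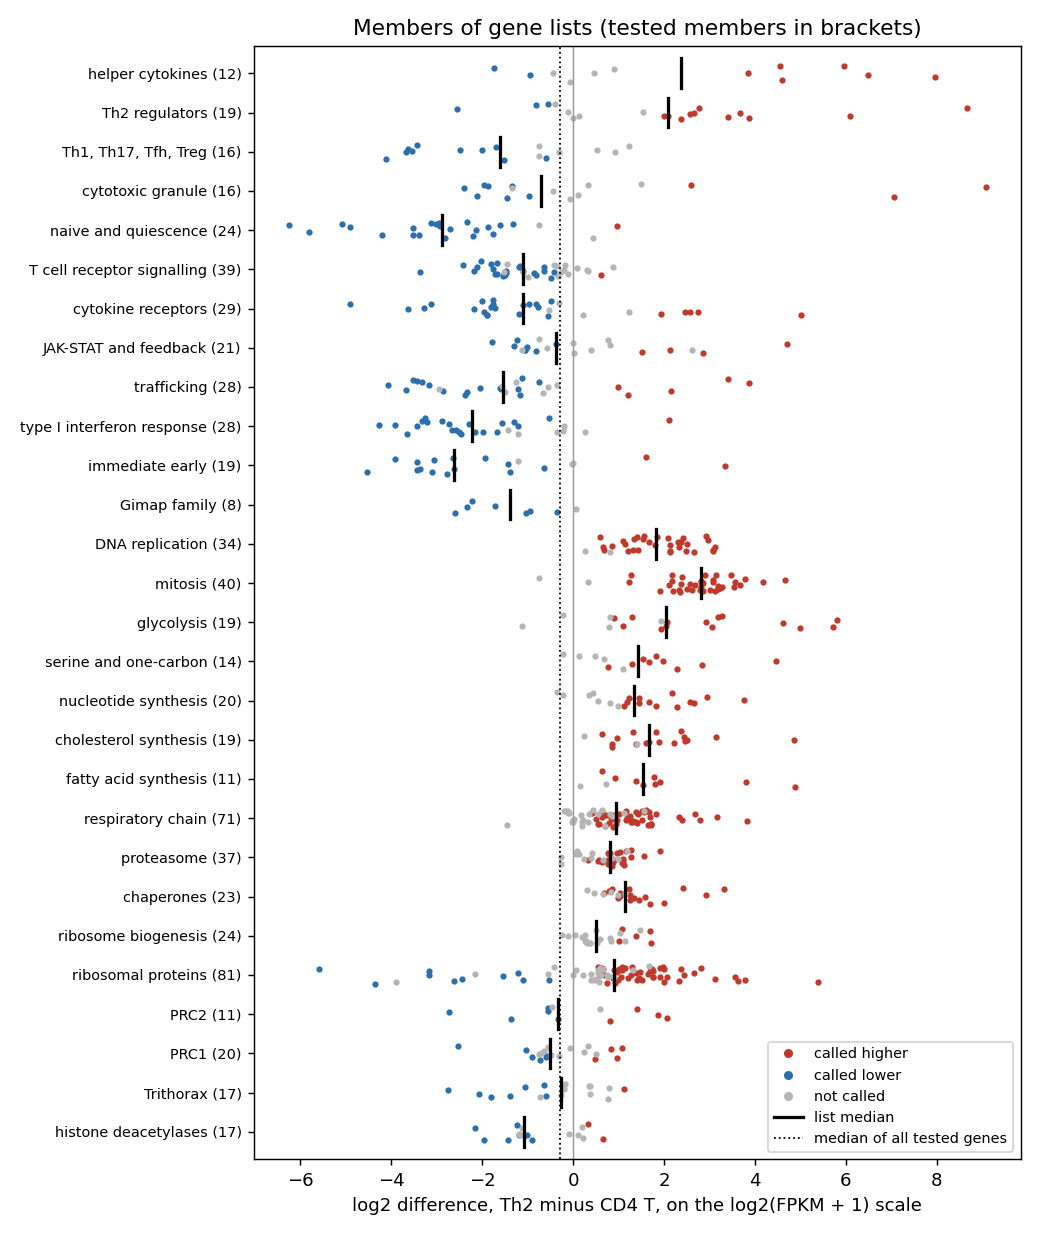
Log2 difference, Th2 minus CD4 T, of each tested member of 28 gene lists, with members called higher in red, lower in blue and not called in grey, the list median as a black bar and the median of all genes (-0.28) as a dotted line. Replication, mitosis and glycolysis lie to the right and the naive, interferon and immediate early lists to the left, while the cytotoxic granule, PRC2 and ribosomal protein lists spread to both sides.

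Markers of B cells, myeloid cells and dendritic cells were present in the sorted CD4T libraries and lower in the cultures. All 15 B cell markers were lower in the cultures (12 and 11 called without Th2 replicate 1 or 2), with sums of 14.9 and 17.6 FPKM in Th2 and 455 and 460 in CD4T, where the median marker stood at 5.94% of its level in the B cell libraries. Pax5, the defining B cell factor, was listed at 0 in both Th2 libraries and at 20.9 and 21.1 FPKM in CD4T. Of 10 MHC class II genes 8 were lower (3 without either Th2 library), with sums of 106 and 181 FPKM in Th2 and 2963 and 2960 in CD4T. H2-Aa, a class II chain, stood at 1.64 and 3.76 against 594 and 601 FPKM, and Cd74, the invariant chain, at 10.5 and 24.2 against 1243 and 1230, and their calls were lost without Th2 replicate 1 (0.0567 and 0.0713) and without replicate 2 (0.0526 and 0.0606). Among the other class II genes H2-Ab1 stood at 35.1 and 80.5 against 515 and 512 FPKM, and H2-DMa (32.8 and 36.7 against 46.2 and 46.8) and H2-Oa (12.6 and 17.7 against 35.8 and 38.2) were not called. The call for H2-Ab1 (-3.25 ± 0.73, limma adjusted p = 0.0381) was lost without any 1 of the Th2 and Th2-TSA libraries (0.0618 to 0.0915), and with median-ratio scaling (0.0527). The median class II gene in CD4T stood at 20.3% of its B cell level, above that of the B cell markers.

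Myeloid and dendritic genes showed the same contrast. Of 17 myeloid markers 8 were listed at 0 in both Th2 libraries and 14 lay below 1 FPKM there. Of these, 4 were at 0 in all Th2 and Th2-TSA files and were left out, as possible failed name matches. All 13 tested were lower. Over all 17, untested ones included, the sums were 15.5 and 14.9 FPKM against 735 and 723. Lyz2 (lysozyme) stood at 0.12 and 0.05 against 94.1 and 92.3 FPKM (-6.44 ± 0.14). C1qa, a complement gene of tissue macrophages, stood at 0 and 0 against 72.5 and 74.4. All 3 dendritic cell markers tested were lower, among them Itgax at 0.01 and 0.03 against 44.7 and 43.9 FPKM (-5.47 ± 0.05). Siglech, of plasmacytoid dendritic cells, was listed at 0 in all Th2 and Th2-TSA files, so it was not tested and nothing is read from it. Many of the largest falls of the whole comparison were such genes. Among the 20 largest, Tyrobp, Lyz2, C1qa, C1qc and Mpeg1 belonged to the myeloid list and H2-Aa, H2-Eb1 and Cd74 to the class II list. The share of these cells in any fall reported above was not tested, beyond the levels in B cells given beside them. Markers of mast cells and basophils, which make IL-4 themselves, were low in both groups, with sums of 2.59 and 2.89 FPKM in Th2 and 10.7 and 10.6 in CD4T. In both CD4T libraries 7 of the 9 lay below 1 FPKM, and in both Th2 libraries 8. Fcer1a, Ms4a2 and Mcpt4 were listed at 0 in both Th2 libraries, but Fcer1a and Ms4a2 averaged only 0.01 and 0.06 FPKM in CD4T. Of 4 tested, 1 was lower, Kit, at 0.06 and 0.04 against 6.7 and 6.77 FPKM. Cpa3, at 2.27 and 2.42 against 2.73 and 2.77, was not called. Of 5 plasma cell markers 2 were higher and none lower: Xbp1, given above, and Prdm1, a factor that activated T cells also express, at 15.9 and 17.8 against 3.54 and 3.42 FPKM (1.99 ± 0.15). The 5 markers summed to 321 and 345 FPKM in Th2 and 99 and 95.5 in CD4T, and their part in other results was not tested.

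**Figure D4:**
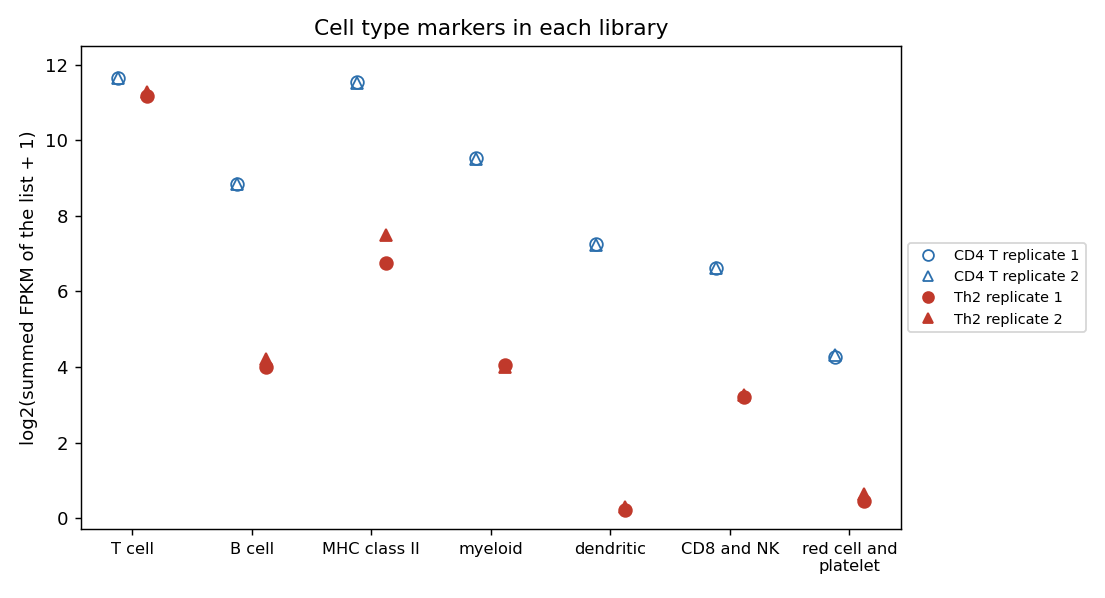
Summed level of 7 marker lists in each library, as log2(summed FPKM + 1), with CD4 T libraries as open blue and Th2 libraries as filled red symbols. The T cell sums lie nearest each other (2330 and 2472 FPKM in Th2, 3234 and 3233 in CD4T), although 8 of 13 T cell markers were called lower. Every other list lies far lower in both Th2 libraries.

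Apart from genes already described, the 20 largest rises included tubulins and metal-binding proteins. Tuba1c stood at 344 and 359 against 5.98 and 5.66 FPKM and Tuba1b at 644 and 673 against 9.39 and 9.62, values that are uncertain because tubulin genes have near-identical relatives. Mt1, a metallothionein, stood at 160 and 490 FPKM in Th2 against 3.45 and 3.89 in CD4T (5.91 ± 0.9, limma adjusted p = 0.0169), and its call was lost without either Th2-TSA library (0.0549 and 0.0554). Bnip3, a mitochondrial gene induced by low oxygen, stood at 108 and 201 against 1.33 and 1.81 FPKM (5.85 ± 0.51). Of the falls, Dtx1, a target of Notch, stood at 0.13 and 0.17 against 97.0 and 97.6 FPKM (-6.42 ± 0.27, limma adjusted p = 0.00205), with 75.7 on average in B cells. The largest fall of all, Patl2, at 0.2 and 0.03 against 626 and 638 FPKM, is uncertain. Its RefSeq interval, chr2:122120108-122186189, contains that of B2m (chr2:122147687-122153082), which had 2030 FPKM in CD4T. The Raet1 genes, near-identical copies at 0 to 0.05 against 131 to 166 FPKM, are uncertain as well.

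The TSA-treated cultures give a second view of some of these genes, with the caution that both comparisons use the same untreated Th2 libraries, so only levels are set side by side. Of the tested genes, 1825 (14.8%) were called between treated and untreated cultures, 1243 (10.1%) higher and 582 (4.71%) lower with TSA. Gzmb averaged 1513 FPKM with TSA against 1893 without and Il4 66.8 against 85.7, neither called (adjusted p = 0.366 and 0.208). Il5 averaged 3.0 against 23 FPKM, Ccr4 23.9 against 85.5 and Cyp11a1 138 against 470, all called lower with TSA (adjusted p = 0.0332, 0.0426 and 0.0419) and all above their CD4T means of 0.01, 7.09 and 0.15 FPKM. Fas averaged 34.6 FPKM with TSA, 5.15 without and 29.8 in CD4T (adjusted p = 0.0243). Il7r averaged 42 FPKM with TSA, 65.7 without and 223 in CD4T (adjusted p = 0.0442), and Tcf7 26.9, 15.6 and 557 FPKM (adjusted p = 0.0669). Gbp2, level in Th2 and CD4T at 26.5 and 33.8 FPKM, averaged 480 FPKM with TSA (adjusted p = 0.0274). These tests treat the libraries as independent, and with the replicate number as a block, a fit chosen after seeing the data, Cyp11a1 and Il7r were not called (limma adjusted p = 0.0657 and 0.0569).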

How the data were processed

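RNA from 10 mouse samples was sequenced after TRIzol extraction and a TruSeq RNA Sample Prep Kit v2, per the labels' protocols. The deposited files give FPKM per RefSeq transcript row, made by the authors with Bowtie 0.12.8, TopHat 1.3.2 and Cufflinks 2.0.2 on mm10, per the submitters' processing notes. A gene's value was the highest of its rows, with 21035 rows giving 19025 genes. Rows without a symbol (315) or with a date for one (30) were kept. They were named by the RefSeq symbol of their transcript, or by the transcript identifier where none was found. Genes with 1 FPKM or more in at least 2 libraries were kept.

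The log2(FPKM + 1) values were fitted with limma 3.58.1 in R 4.3.3 (intensity trend) over 7 samples of all groups, after the ES, B and CD4T pairs were averaged. P-values are two-sided, adjusted by Benjamini-Hochberg over 12367 genes and called below 0.05. They measure only the spread between these libraries, which may be technical. The fit was also run on simulated data (10721 genes). These had normal noise sized from the Th2 pair, given to the CD4T sample too. It recovered 99% of 100 genes changed by 1 on the log2 scale and 100% of 100 changed by 2, with 16 false calls. In the real data 54.9% of genes were called, and Nop58 (1.47) and Cd3e (-0.99), for example, were not. The simulation assumes the CD4T spread and changes few genes, so it cannot tell how many real changes are missed.

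The members, gene lists and markers were chosen with earlier results of these data known. Named genes are the 4 markers, the first 4 and up to 6 most different members of each list, the 20 largest differences each way and the 10 highest called genes of each group, choices by size needing 5 FPKM or more in one group. Other genes, and Lef1 and Igfbp4 in the plot of levels by library, were named after their values were seen. Alternatives were the pseudocount (0.1 and 5), the filter, scaling, the rule for rows, separate libraries, a replicate block and leaving out each library. Some genes are not reported here. Promoters are from RefSeq (GRCm38.p6).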

Additional observations from a re-analysis of the deposited data

How the results depend on the processing

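The count of genes called higher was 3505 with quantile normalization, 3369 with 10 separate libraries and 3416 with 10 libraries and a replicate block. Leaving out 1 library at a time gave 3188 to 6790 called genes, 942 to 2082 higher and 2246 to 4708 lower. All other settings kept the 3 counts within 1.5 times. No label says that a replicate number, which is the experiment number of the title, marks a shared culture. Deviations of same-numbered libraries correlated at 0.58 between Th2 and Th2-TSA, a hint of pairing between those cultures, and at 0.01 between Th2 and CD4T, where the CD4T pair differs too little to show any. With 7 samples, the replicate block gave 8047 called genes, 2664 higher and 5383 lower. In a fit chosen after seeing the data, the block moved the count called between TSA-treated and untreated cultures from 1825 to 2368, of which 1376 were shared. Of 153 named genes called, 109 kept call and direction throughout, 39 lost the call without a Th2 library and 16 without a Th2-TSA library. Signs turned with median-ratio scaling for Ccnd2 (0.21), Cd3d (0.25) and Gbp2 (0.01), with quantile normalization for B2m (-0.51) and Il1rl1 (0.15), and with summed rows in the non-Th2 files for Ccnd3 (-0.38). The main limits are the file kinds, which coincide with the groups, the 2 residual degrees of freedom, the assumed spread of the CD4T sample, and a depth that is unknown, so that low FPKM values carry no counting error here. Where a call or sign changed, the cause was not tested, except that leaving out a library leaves fewer samples. With a filter at 5 FPKM, no red cell or platelet marker was left to give a median.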
